A study of Mus musculus with 8 samples.

Results

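10 transcription factors that set the fate of B cells (Bcl6, Bach2, Pax5, Ebf1, Pou2af1, Ikzf1, Ikzf3, Foxo1, Prdm1 and Xbp1) were followed in germinal centre B cells of mice bred to lack Irf8 in the B lineage and of control mice. They were taken by gene symbol, and all 10 are among the 23469 symbols listed in the RPKM tables of both experiments. The libraries labelled Irf8 cKO came from Irf8flox/flox mice, and the control libraries, labelled Ctrl, from Irf8+/+ mice. Both genotypes are on the C57BL/6 strain and carry 1 copy of the same Cre allele, which is active in B lineage cells, so that the floxed gene is meant to be lost from the whole B lineage and not from the germinal centre alone. B220-positive, FAS-high, GL7-high cells were sorted on day 13 after immunization with NP-KLH, a hapten coupled to a carrier protein, and the ages of the mice are not given in the sources used here. Experiments 1 and 2 each gave 1 library of either genotype, so n = 2 per group, and nothing in the labels says whether a library is 1 animal or a pool. The p-values therefore rest on these libraries alone, and the spread between them may be technical. In the test on RPKM as deposited, the spread used was that of genes of similar level and not that of the gene itself.

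Germinal centre B cells proliferate and mutate their antibody genes, and leave either as memory cells or as antibody-secreting plasma cells. PAX5 and EBF1 hold the B cell identity, BCL6 and BACH2 repress the plasma cell programme, and the Ikaros family proteins encoded by Ikzf1 and Ikzf3 and the octamer coactivator encoded by Pou2af1 support B cell gene expression. Prdm1 encodes BLIMP-1, the repressor that switches off the B cell programme in plasma cells, and Xbp1 encodes the factor that expands their secretory apparatus. IRF8 and its relative IRF4 bind DNA weakly alone and bind composite elements together with ETS family proteins such as PU.1. The comparison asks which of these transcripts differ in germinal centre B cells when Irf8 is deleted.

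The promoters of the factors are shown because IRF8 acts on DNA at 2 kinds of element, the interferon-stimulated response element (ISRE; searched as GAAA and GAAA with any 2 bases between) and the ETS-IRF composite element (EICE; searched as GGAA and GAAA with any 2 bases between). RefSeq promoter windows of GRCm38.p6, each holding 250 bases before and 50 after a start site, were at hand for 9 of the 10 genes (12 windows, as Bcl6, Ebf1 and Ikzf1 have 2 each), and Ikzf3 is named only. Matches were sought on both strands. The windows with an ISRE or EICE match and that of Prdm1 are printed in the direction of transcription, with matches to the ISRE, EICE, BCL6 (TTCNNNGAA), BACH2 (TGANTCA) and FOXO (GTAAACA) elements in capitals.
Bcl6, chr16:23981234-23981533, minus strand: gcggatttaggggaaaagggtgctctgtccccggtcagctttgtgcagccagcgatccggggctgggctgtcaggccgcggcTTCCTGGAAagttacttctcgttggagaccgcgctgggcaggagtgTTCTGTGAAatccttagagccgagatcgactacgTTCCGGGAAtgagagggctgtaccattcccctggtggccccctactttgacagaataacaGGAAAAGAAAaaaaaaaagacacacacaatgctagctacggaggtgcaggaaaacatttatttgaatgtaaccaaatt
Bach2, chr4:32417185-32417484, plus strand: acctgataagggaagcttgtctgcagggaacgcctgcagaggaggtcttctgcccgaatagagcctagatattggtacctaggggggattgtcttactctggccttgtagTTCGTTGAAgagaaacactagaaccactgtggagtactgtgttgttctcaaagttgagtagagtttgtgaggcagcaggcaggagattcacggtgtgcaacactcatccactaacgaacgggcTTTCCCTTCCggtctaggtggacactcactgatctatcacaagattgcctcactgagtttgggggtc
Ebf1, chr11:44617850-44618149, plus strand: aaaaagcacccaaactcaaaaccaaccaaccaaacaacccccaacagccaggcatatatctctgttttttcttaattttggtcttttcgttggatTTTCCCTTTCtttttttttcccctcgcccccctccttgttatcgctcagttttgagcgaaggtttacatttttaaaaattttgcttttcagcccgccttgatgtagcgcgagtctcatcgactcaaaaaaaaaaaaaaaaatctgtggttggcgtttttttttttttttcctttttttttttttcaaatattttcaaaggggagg
Prdm1, chr10:44458699-44458998, minus strand: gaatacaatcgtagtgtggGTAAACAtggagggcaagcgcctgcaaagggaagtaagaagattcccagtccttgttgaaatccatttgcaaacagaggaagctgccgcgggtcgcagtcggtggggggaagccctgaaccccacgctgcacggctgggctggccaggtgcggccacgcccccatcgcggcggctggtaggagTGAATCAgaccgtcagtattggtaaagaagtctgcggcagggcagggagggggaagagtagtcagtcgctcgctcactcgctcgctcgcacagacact

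The EICE letters stood in the windows of Bcl6 and Bach2, with the first base at position -28 from the start site in Bcl6 and at -17 in Bach2, where the letters read on the opposite strand. They are found in 2.72% of all 32851 windows. The ISRE letters stood in Ebf1 alone, at -155 on the opposite strand, and are in 3.44% of all windows. The Bcl6 window lies inside the transcribed span of the gene, at an internal start site, and holds 3 BCL6 elements, while the other Bcl6 window, the Bach2 window and 1 of the Ikzf1 windows hold 1 each; 8.3% of all windows have that element. The Prdm1 window holds a match to the BACH2 search letters TGANTCA at -48, where it reads TGAATCA (7.81% of all windows match these letters). It also holds a FOXO element at -231 (3.65%). Of the other elements searched, the Ikaros element TGGGAA was in Ebf1, Prdm1 and Xbp1 (25.6% of all windows), the EBF element (TCCC and GGGA with any 2 bases between) in Foxo1 (0.904%) and the XBP1 element GACGTGG in Pou2af1 (2.42%). The octamer ATGCAAAT and the BLIMP-1 element AGTGAAAG were in none of the 12 windows and are in 1.74% and 1.32% of all windows. A match is a run of letters and says nothing of binding.

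**Figure D1:**
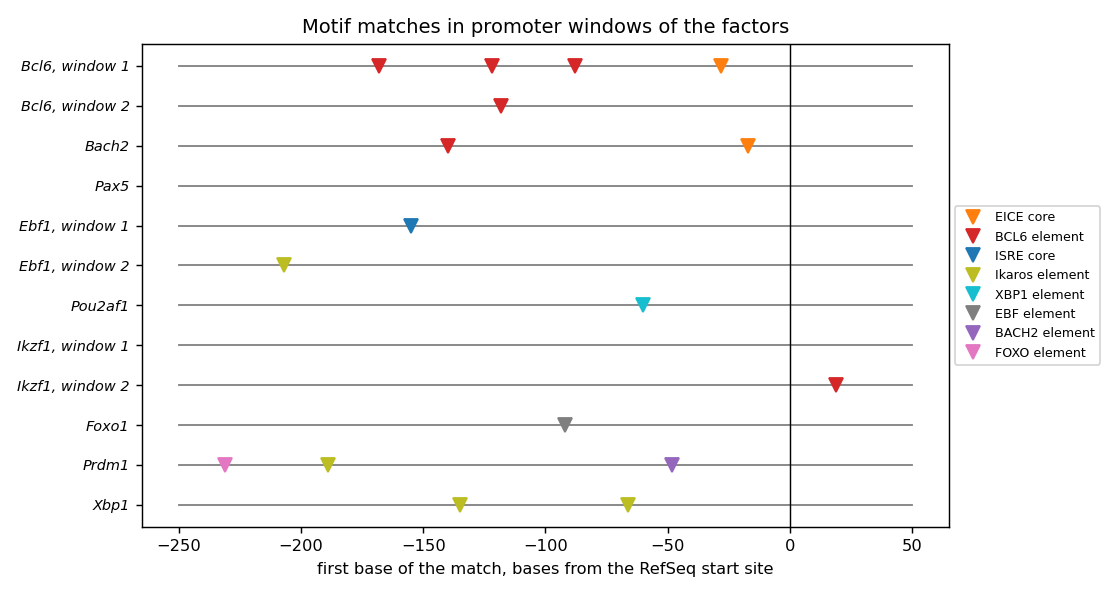
Position of each motif match in the 12 promoter windows of 9 genes, as the first base of the match in bases from the RefSeq start site (x axis), with 1 line per window and 1 colour per element. The EICE matches of Bcl6 and Bach2 sit at -28 and -17, and the ISRE match of Ebf1 at -155.

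The values deposited by the authors are RPKM, read counts divided by transcript length and by the mapped reads of the library. Estimated totals were 76.2 M and 63.9 M reads (M, mega) for the libraries labelled Irf8 cKO 1 and 2, against 73.3 M and 63.1 M for Ctrl 1 and 2, of which annotated exons other than those of the ribosomal RNA precursor Rn45s held 10.6% and 7.07% against 12.7% and 11.3%. The library labelled Irf8 cKO 2 stood apart from the other 3, with the most Rn45s (16716 RPKM, against 5887 to 9085 in the others) and the fewest genes at 1 RPKM or more (4845, against 6171 to 6566), and the part of this in the results was not tested. All genes together were displaced downwards in the libraries labelled Irf8 cKO: the median log2 ratio of Irf8 cKO over Ctrl over 6446 tested genes was -0.35 (-0.18 in experiment 1 and -0.51 in experiment 2). Ratios are therefore given as deposited and after median-of-ratios scaling, which divides each library by its typical ratio to the mean library and leaves a median of -0.04. Irf8 itself measured 20.6 and 11.6 RPKM in the libraries labelled Irf8 cKO, against 14.5 and 14.9 in Ctrl, higher than Ctrl in the first and lower in the second (log2 ratio 0.08 as deposited, with 0.48 and -0.33 in experiments 1 and 2, and 0.51 after scaling, limma adjusted p = 0.478; 0.717 with p = 0.0237 and 0.366 with p = 0.278 in the authors' deposited table), and its value spans all exons and does not check the deletion. All 19 germinal centre B cell markers found in the tables passed the filter on low values. Of these, 19 lay below 0 as deposited and 13 after scaling (median log2 ratio -0.58 and -0.15). As deposited 1, Ms4a1, was called lower, where 1.09% of all tested genes were. The 12 myeloid markers in the tables summed to 18.2 and 3.81 RPKM in the libraries labelled Irf8 cKO, against 67.3 and 9.17 in Ctrl. Of them 4 were tested and 2 were called lower as deposited (S100a8 and S100a9), where 1.09% of all tested genes were, and 1 was at 0 in all 4 libraries. The 12 T cell markers summed to 10.2 and 6.10 RPKM against 8.39 and 8.33, with 2 at 0 in all 4 libraries, Cd3g among them. Most of each sum came from Cd247 (4.85 and 1.96 RPKM against 4.47 and 3.99) and Lck (5.06 and 2.69 against 3.66 and 3.21). Markers of dendritic, erythroid and NK cells summed to under 2 RPKM each in every library. The part of such cells in the results was not tested.

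Pou2af1 was the most abundant of the 10 in every library, with 181.0 and 98.0 RPKM in the libraries labelled Irf8 cKO 1 and 2, against 240.8 and 196.7 in Ctrl 1 and 2. It ranked 8th and 8th among all 23469 symbols in the libraries labelled Irf8 cKO, and 8th and 7th in Ctrl, and made up 51.1% and 43.4% of the summed RPKM of the 10 genes in the libraries labelled Irf8 cKO, against 52.9% and 47.6% in Ctrl. Ikzf3, Bcl6, Ikzf1 and Pax5 followed, between 16.1 and 52.8 RPKM in all 4 libraries, then Bach2, Ebf1 and Foxo1 between 6.21 and 22.6, and Xbp1 between 4.47 and 9.23. Prdm1 was last in every library and was the single factor under 1 RPKM, at 0.440 and 0.330 in the libraries labelled Irf8 cKO, against 0.285 and 0.457 in Ctrl. The order of the middle genes varied between libraries. Pax5 was second in the library labelled Irf8 cKO 2 and ranked below Ikzf3, Ikzf1 and Bcl6 in the other 3, and the values of Bcl6 and Ikzf1 overlapped in both groups, so that these neighbours were not separated by their spread.

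**Figure D2:**
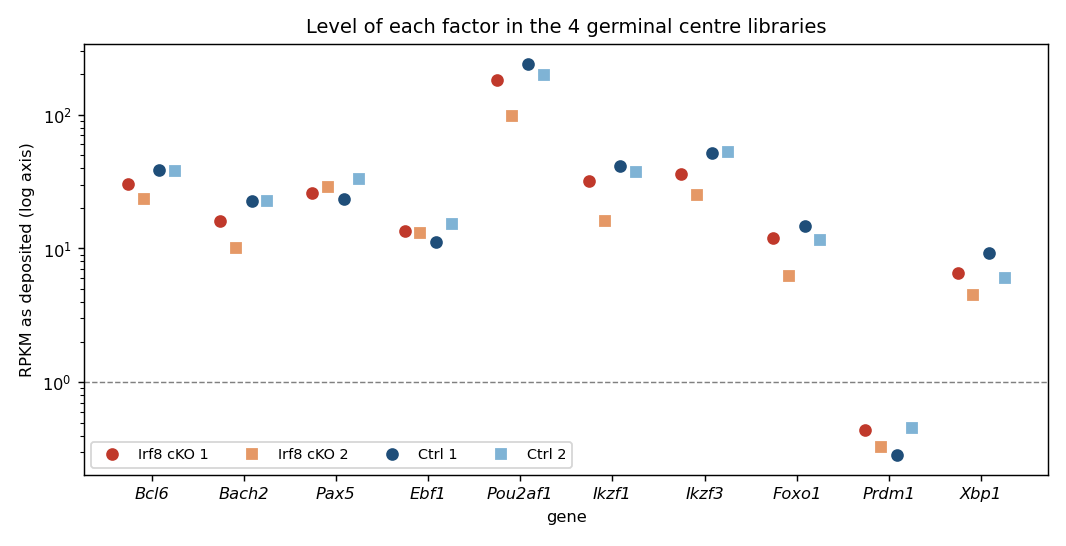
RPKM as deposited (y axis, log scale) of the 10 factors in the 2 libraries labelled Irf8 cKO and the 2 Ctrl libraries, 1 point per library, with the filter limit of 1 RPKM as a dashed line. Pou2af1 lies highest, from 98.0 to 240.8 RPKM, and Prdm1 lowest, under 0.5 RPKM in all 4 libraries.

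None of the factors passed the test between the libraries labelled Irf8 cKO and Ctrl. The test was a linear model on log2(RPKM + 1) with the experiment as a block (limma, Benjamini-Hochberg adjustment over all 6446 genes, threshold 0.05), and 9 of the 10 factors entered it, as Prdm1 stayed under the filter of 1 RPKM in at least 2 libraries. As deposited, 0 of 9 were called lower, where 1.09% of all tested genes were, and 0 were called higher, where 0.0931% were. After scaling, 0 of 9 and 0 of 6446 genes were called in either direction, with 380 genes lower (5.9%) and 278 higher (4.31%) at an unadjusted p under 0.05. At that unadjusted limit, 4 factors were lower as deposited (Bach2, Pou2af1, Ikzf1 and Ikzf3), where 18.6% of all tested genes were, and Ebf1 was higher after scaling. As deposited, 5 of the 10 factors were lower in the libraries labelled Irf8 cKO with no overlap between groups, which held for 44.7% of tested genes, and none was higher without overlap (1.19%). After scaling, 4 were lower and 1 was higher without overlap, against 18.5% and 13% of tested genes. The median log2 ratio of the 9 tested factors was -0.54 as deposited and -0.12 after scaling, beside -0.35 and -0.04 over all tested genes. In the authors' deposited table, 0 of the 10 factors had an unadjusted p under 0.05 in either experiment, where 4.65% of the genes tested here did in experiment 1 and 3.61% in experiment 2. Without the library labelled Irf8 cKO 2, the log2 ratios as deposited were -0.46 for Bach2, -0.26 for Pou2af1, -0.28 for Ikzf1 and -0.53 for Ikzf3, and -0.32, -0.12, -0.14 and -0.38 after scaling, while the scaled values of Pax5 and Ebf1 were 0.034 and 0.17, with limma adjusted p-values of 1. In bulk RNA, fewer cells of a type and less RNA per cell cannot be told apart.

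**Figure D3:**
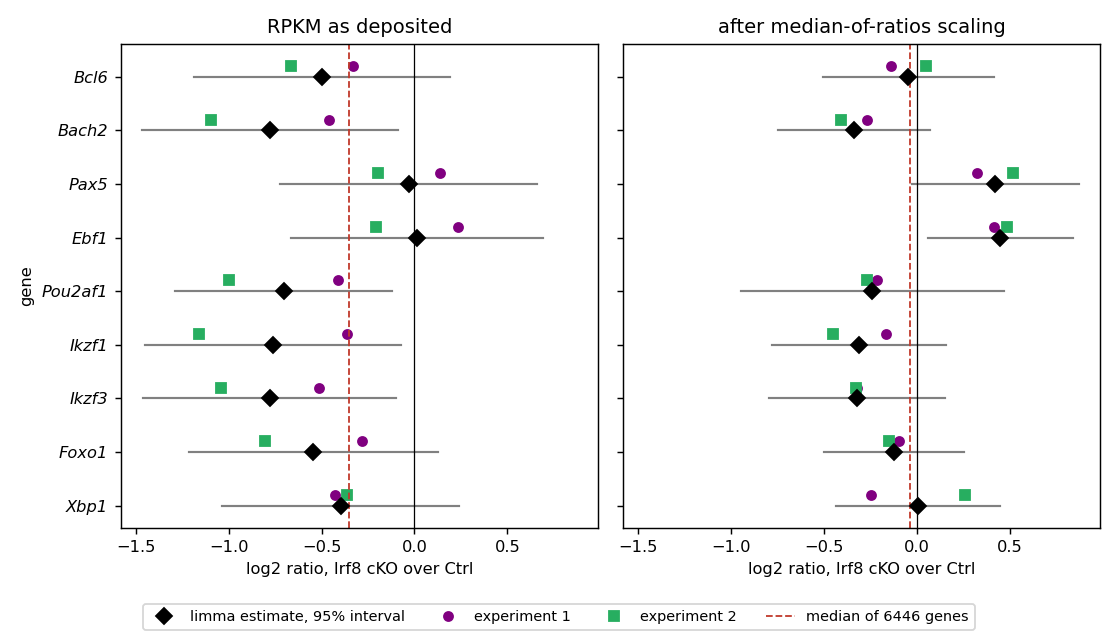
Log2 ratio of Irf8 cKO over Ctrl (x axis) of the 9 tested factors, as deposited on the left and after median-of-ratios scaling on the right, with the limma estimate and its 95% interval (diamond and bar), the ratio within each experiment (circle and square) and the median of all 6446 tested genes (dashed line). Bach2, Pou2af1, Ikzf1, Ikzf3 and Foxo1 lie below 0 in both panels and both experiments, and Pax5 and Ebf1 lie above 0 in both experiments only after scaling.

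Of the repressors that hold back plasma cell formation, Bach2 lay below Ctrl in both libraries labelled Irf8 cKO, also after scaling, while the scaled groups of Bcl6 overlapped; neither passed the test. Bach2 (NM_001109661, chr4:32417435-32586108, plus strand, mm10), which represses Prdm1 and haem and oxidative stress genes, measured 16.1 and 10.0 RPKM in the libraries labelled Irf8 cKO 1 and 2, against 22.5 and 22.6 in Ctrl 1 and 2. Both libraries labelled Irf8 cKO lay below both Ctrl libraries, which were nearly equal, and the second was the lowest. The log2 ratio was -0.78 ± 0.35 as deposited (SE; limma adjusted p = 0.233; 95% interval -1.46 to -0.09), with -0.46 and -1.09 in experiments 1 and 2. After scaling it was -0.34 ± 0.17 (limma adjusted p = 0.539; interval -0.75 to 0.07), with -0.27 and -0.41 in the experiments, and the scaled groups still did not overlap (15.2 and 14.7 against 18.5 and 19.9). Bcl6 (NM_009744, chr16:23965052-23988612, minus strand), the master repressor of the germinal centre state, measured 30.5 and 23.4 RPKM in the libraries labelled Irf8 cKO, against 38.7 and 37.7 in Ctrl. As deposited the libraries labelled Irf8 cKO were both below Ctrl, with a log2 ratio of -0.50 ± 0.35 (limma adjusted p = 0.359). After scaling the groups overlapped and the ratio was -0.05 ± 0.19 (limma adjusted p = 0.945; interval -0.51 to 0.42), with -0.14 in experiment 1 and 0.05 in experiment 2. The authors' deposited table gives Bach2 log2 ratios of -0.28 (p = 0.386) and -0.447 (p = 0.183) in experiments 1 and 2, and Bcl6 -0.137 (p = 0.665) and 0.0325 (p = 0.921), each from 1 library against 1.

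The factors of B cell identity, Pax5 and Ebf1, had log2 ratios near 0 as deposited, above the -0.35 of the median tested gene, and neither passed the test. Pax5 (NM_008782, chr4:44531506-44710440, minus strand) measured 26.0 and 28.9 RPKM in the libraries labelled Irf8 cKO, against 23.6 and 33.3 in Ctrl. The Ctrl libraries enclosed those labelled Irf8 cKO, with Ctrl 1 lowest and Ctrl 2 highest. The log2 ratio was -0.03 ± 0.35 as deposited (limma adjusted p = 0.951) and 0.42 ± 0.18 after scaling (limma adjusted p = 0.520; interval -0.03 to 0.87), with 0.32 and 0.52 in the experiments, so its sign turned with the scaling. Ebf1 (NM_007897, chr11:44618134-45005172, plus strand), which acts with PAX5, measured 13.4 and 13.1 RPKM in the libraries labelled Irf8 cKO, against 11.3 and 15.3 in Ctrl. It showed the same arrangement as deposited, with the Ctrl libraries on either side. After scaling the groups of Ebf1 still overlapped, at 12.6 and 19.2 in the libraries labelled Irf8 cKO, against 9.24 and 13.5 in Ctrl. Its log2 ratio was 0.01 ± 0.35 as deposited (limma adjusted p = 0.980) and 0.45 ± 0.16 after scaling (limma adjusted p = 0.478; interval 0.06 to 0.84), with 0.41 and 0.48 in the experiments. The authors' deposited table gives both genes positive log2 ratios, 0.345 and 0.517 for Pax5 and 0.46 and 0.497 for Ebf1 in experiments 1 and 2, with p-values between 0.125 and 0.29. These ratios come from the same libraries and exceed those of the RPKM by a nearly constant amount (0.205 and 0.721 in experiments 1 and 2). They are thus no second measurement of the sign.

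Pou2af1, Ikzf1 and Ikzf3 lay lower in both libraries labelled Irf8 cKO than in either Ctrl library, as deposited and after scaling, and none passed the test. Such lower groups without overlap made up 44.7% of tested genes as deposited and 18.5% after scaling. For Pou2af1 the scaled margin was small, with 170.4 in the library labelled Irf8 cKO 1 against 173.3 in Ctrl 2. For Pou2af1 (NM_011136, chr9:51213690-51240079, plus strand), whose RPKM stand above, the group values were 139.5 ± 58.7 in the libraries labelled Irf8 cKO and 218.8 ± 31.1 in Ctrl (mean ± SD, n = 2 each). The difference as a log2 ratio was -0.70 ± 0.30 in the deposited RPKM (limma adjusted p = 0.217) and -0.24 ± 0.29 after scaling (limma adjusted p = 0.783). Ikzf1 (NM_001025597 and NM_009578, chr11:11686213-11772926, plus strand), which encodes Ikaros, measured 32.1 and 16.1 RPKM in the libraries labelled Irf8 cKO, against 41.6 and 37.2 in Ctrl. The library labelled Irf8 cKO 2 stood far below the other 3. The log2 ratio of Ikzf1 was -0.76 ± 0.35 as deposited (limma adjusted p = 0.239) and -0.31 ± 0.19 after scaling (limma adjusted p = 0.597), with -0.17 and -0.45 in the scaled experiments. Ikzf3 (NM_011771, chr11:98464693-98546031, minus strand), which encodes Aiolos, measured 36.1 and 25.1 RPKM in the libraries labelled Irf8 cKO, against 52.1 and 52.8 in Ctrl. Its Ctrl values were close to each other and above both of the others. Its log2 ratio was -0.78 ± 0.35 as deposited (limma adjusted p = 0.232) and -0.32 ± 0.19 after scaling (limma adjusted p = 0.589), with -0.32 and -0.33 in the scaled experiments.

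Foxo1 (NM_019739, chr3:52268337-52350109, plus strand), a factor of the dark zone where germinal centre cells divide, measured 11.97 and 6.21 RPKM in the libraries labelled Irf8 cKO, against 14.8 and 11.6 in Ctrl. The library labelled Irf8 cKO 1 lay between the Ctrl libraries and the library labelled Irf8 cKO 2 below them, so the groups overlapped. The log2 ratio was -0.54 ± 0.34 as deposited (limma adjusted p = 0.321) and -0.12 ± 0.15 after scaling (limma adjusted p = 0.792; interval -0.50 to 0.25). Within each experiment the library labelled Irf8 cKO was the lower, with -0.28 and -0.81 as deposited and -0.10 and -0.15 after scaling in experiments 1 and 2.

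The plasma cell factors were the least abundant of the 10 in all 4 libraries, and no difference passed the test. Prdm1 (NM_007548, chr10:44437175-44458687, minus strand), at the RPKM given above, corresponds to an estimated 135 and 85 reads in the libraries labelled Irf8 cKO, against 84 and 116 in Ctrl, and its groups overlapped. The scaled values were 0.414 and 0.485 in the libraries labelled Irf8 cKO, against 0.234 and 0.402 in Ctrl, higher without overlap by a small margin. In a fit of 15557 genes without the filter its log2 ratio as deposited was 0.02 ± 0.15 (limma adjusted p = 0.969; interval -0.32 to 0.35), on a scale that understates changes of genes this low. The authors' deposited table gives Prdm1 log2 ratios of 0.829 and 0.254 in experiments 1 and 2, with p-values of 0.177 and 0.728. Xbp1 (NM_001271730 and NM_013842, chr11:5520641-5525993, plus strand) measured 6.61 and 4.47 RPKM in the libraries labelled Irf8 cKO, against 9.23 and 6.05 in Ctrl. Experiment 1 was the higher in both groups, and the groups overlapped. Its log2 ratio was -0.40 ± 0.33 as deposited (limma adjusted p = 0.423) and 0.01 ± 0.18 after scaling (limma adjusted p = 0.995; interval -0.44 to 0.45), with -0.25 in experiment 1 and 0.26 in experiment 2. Sdc1 and Tnfrsf17, surface markers of plasma cells, were at or under 0.21 RPKM in all 4 libraries. The 7 plasma cell markers in the tables summed to 39.5 and 24.2 RPKM in the libraries labelled Irf8 cKO, against 48.7 and 32.7 in Ctrl, mostly from Igj and Slamf7, and their part in the results was not tested.

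Ratios of 2 factors within a library do not depend on how that library was scaled, and 12 such ratios were formed between factors that oppose or accompany each other, some with Irf4. With 2 libraries against 2 the exact permutation test cannot give a 2-sided p below 0.333, so no ratio could pass it, and the smallest p adjusted over the 12 was 0.667. In 6 of the 12 the groups did not overlap, and 8 had the same sign in both experiments. The share of all gene pairs without overlap was not computed, and a random split of the libraries gives none in 0.333 of cases. The ratios also share genes and are not independent, as each of those without overlap holds Bach2 or Bcl6. Bach2 over Prdm1 was 36.6 and 30.4 in the libraries labelled Irf8 cKO, against 79.0 and 49.4 in Ctrl, a log2 difference of -0.90 (-1.11 and -0.70 in the experiments; exact permutation p = 0.333). Bcl6 over Prdm1 was 69.4 and 70.8, against 136 and 82.5 in Ctrl (log2 difference -0.59, with -0.97 and -0.22 in the experiments; exact permutation p = 0.333). Without Ctrl 1 this difference was -0.24 and that of Bach2 over Prdm1 -0.57. Both ratios lay lower in both libraries labelled Irf8 cKO, and both have the sparse reads of Prdm1 below the line.

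Of the 9 ratios without Prdm1, that of Pax5 over Bach2 had the largest log2 difference. It was 1.61 and 2.88 in the libraries labelled Irf8 cKO, against 1.04 and 1.48 in Ctrl, a log2 difference of 0.79 (0.62 and 0.96 in the experiments; exact permutation p = 0.333), and both genes were read deeply, with 5443 or more estimated reads in every library. Bcl6 over Bach2 was 1.90 and 2.33 in the libraries labelled Irf8 cKO, against 1.72 and 1.67 in Ctrl (log2 difference 0.31). Pax5 over Ebf1, by contrast, was 1.93 and 2.21 in the libraries labelled Irf8 cKO, against 2.09 and 2.18 in Ctrl, and overlapped (log2 difference -0.05). Ikzf1 over Ikzf3 likewise overlapped, at 0.889 and 0.641 against 0.798 and 0.704 in Ctrl (log2 difference 0.01). Irf8 over Irf4 was 5.03 and 3.20 in the libraries labelled Irf8 cKO, against 3.21 and 4.30 in Ctrl, with opposite signs in the experiments (0.65 and -0.42). Foxo1 over Bach2, Pax5 over Prdm1 and Pax5 over Xbp1 overlapped as well, with log2 differences of 0.22, -0.11 and 0.43, and Bach2 over Xbp1 was lower by a margin too small to appear at 3 digits (2.44 and 2.24, against 2.44 and 3.73 in Ctrl). Bcl6 over Irf4 was 7.44 and 6.43 in the libraries labelled Irf8 cKO, against 8.58 and 10.9 in Ctrl (log2 difference -0.48), lower without overlap.

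**Figure D4:**
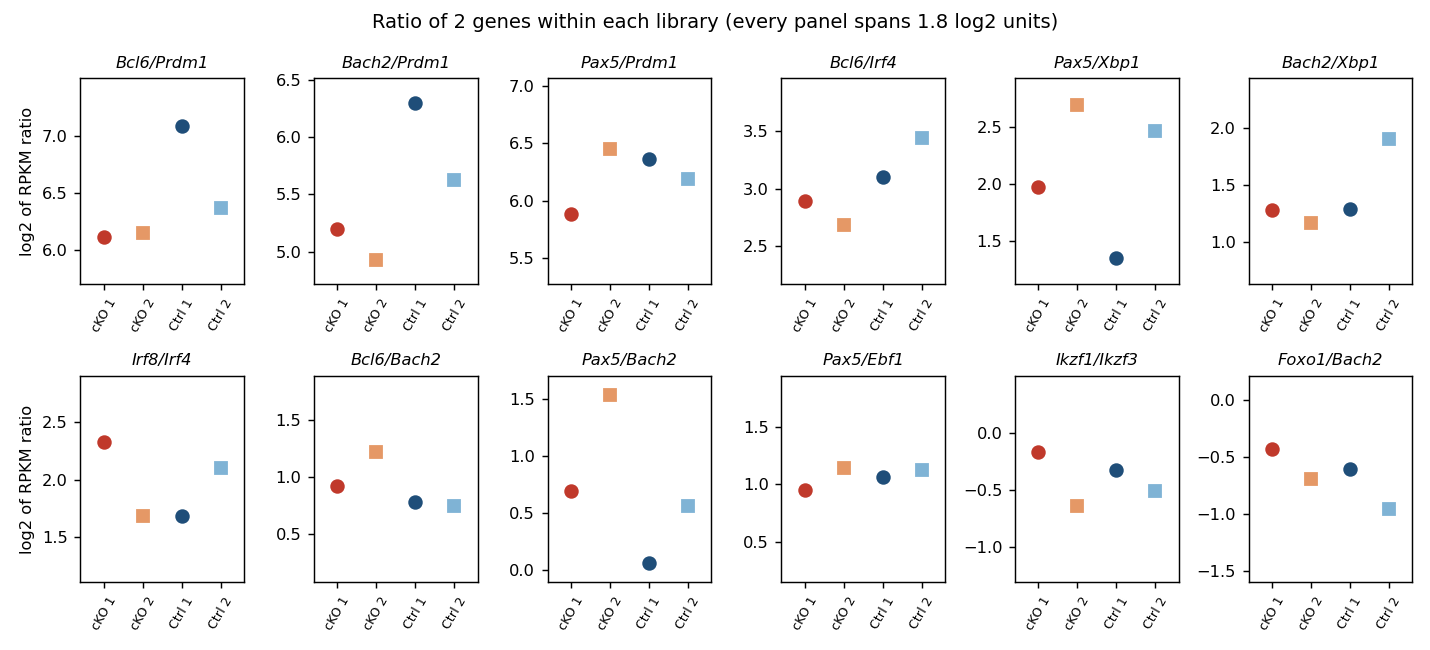
Log2 of the RPKM ratio of 2 genes (y axis) in each of the 4 libraries (x axis), with 1 panel per pair and every panel spanning 1.8 log2 units. Pax5 over Bach2 is higher in both libraries labelled Irf8 cKO than in Ctrl, Bach2 over Prdm1 is lower, and Pax5 over Ebf1 stays within 1.93 to 2.21 before the log.

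The genes with the most similar pattern over the 4 libraries were found by the root mean square difference of centred log2(RPKM + 1) among 6445 other tested genes, a description over 4 points that share library depth. Among the factors themselves, Bach2 and Ikzf3 were closest (0.044), with 13 other genes nearer to Bach2 and 8 nearer to Ikzf3. Pax5 and Ebf1 were next to each other as well (0.074), with 56 and 99 genes nearer. Pou2af1 and Ikzf1 stood at 0.061. Outside the set, the nearest genes were Smchd1 for Bach2, Thoc7 for Ikzf3, Btnl2 for Pax5, Tnf for Ebf1, Eif1b for Pou2af1, Pdhb for Ikzf1, Senp7 for Bcl6, Cdv3 for Foxo1 and Atxn7l3b for Xbp1, all within 0.0233.

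The genes that these factors act on were described through 10 lists of partners and targets, with no test of a list. Of the 11 listed genes that BACH2 represses, 4 passed the filter. As deposited 1 of them was called lower, where 1.09% of all tested genes were, and after scaling none was. The list median was -0.81 as deposited and -0.38 after scaling, beside -0.35 and -0.04 over all tested genes. The scaled median was -0.68 in experiment 1 and -0.17 in experiment 2. As deposited the median was -0.47 without Irf8 cKO 2 and -0.51 without Ctrl 1. It was -0.98 without Irf8 cKO 1 and -1.14 without Ctrl 2. With no filter on low values, which adds listed genes of low level, it was -0.23 as deposited. Scaled it was -0.29 without Irf8 cKO 1, -0.33 without Irf8 cKO 2, -0.23 without Ctrl 1 and -0.64 without Ctrl 2. The called gene was Blvrb, which encodes a biliverdin reductase of haem breakdown, with 6.89 and 2.92 RPKM in the libraries labelled Irf8 cKO, against 15.5 and 8.34 in Ctrl. It fell as deposited (log2 ratio -1.16, limma adjusted p = 0.0435) and did not pass after scaling (-0.77, limma adjusted p = 0.350). Fth1, the ferritin heavy chain gene of the same list, measured 28.7 and 23.1 RPKM in the libraries labelled Irf8 cKO, against 70.2 and 48.5 in Ctrl, without passing either test (log2 ratio -1.15 as deposited and -0.70 after scaling). The remaining tested genes of the list, Ftl1 and Slc48a1, lay near 0 after scaling (log2 ratio -0.02 and -0.07, and -0.47 and -0.32 as deposited). The scaled ratio of Ftl1 was -0.49 in experiment 1 and 0.44 in experiment 2. All 4 tested genes of the list thus lay below 0, as deposited and after scaling, but by unequal amounts.

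Of 23 genes that PAX5 and EBF1 activate, 20 were tested and 1 was called lower as deposited, where 1.09% of all tested genes were. The list median was -0.54 as deposited and -0.14 after scaling, beside -0.35 and -0.04 over all tested genes. The called gene was Ms4a1, which encodes CD20, with 49.0 and 23.4 RPKM in the libraries labelled Irf8 cKO, against 96.4 and 67.6 in Ctrl (log2 ratio -1.23 as deposited, limma adjusted p = 0.0356; -0.77 after scaling, limma adjusted p = 0.450). Cd72, a coreceptor gene of the same list, went the other way without passing, with 6.85 and 6.02 RPKM in the libraries labelled Irf8 cKO, against 3.79 and 5.06 in Ctrl (log2 ratio 0.46 as deposited and 0.85 after scaling). Thus within the list the values ran in both directions, 13 below 0 and 7 above after scaling.

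The other 8 lists held no called gene in either direction, as deposited or after scaling. After scaling their medians lay between -0.14 (13 of 24 FOXO1-activated genes tested, with Bcl6 and Bach2 among them) and 0.07 (24 of 27 corepressors and chromatin partners). Among 11 tested of 22 BCL6-repressed genes the median was -0.35 as deposited and -0.01 after scaling. Irf4, which opposes IRF8 in B cell differentiation, measured 4.11 and 3.64 RPKM in the libraries labelled Irf8 cKO, against 4.51 and 3.47 in Ctrl (log2 ratio -0.03 as deposited and 0.35 after scaling, limma adjusted p = 0.564 in the second). Its scaled ratio was 0.05 in experiment 1 and 0.65 in experiment 2. The authors' deposited table gives Irf4 log2 ratios of 0.0703 (unadjusted p = 0.838) and 0.790 (unadjusted p = 0.0370) in experiments 1 and 2, each from 1 library against 1. In experiment 2, 3.61% of the genes tested here had such a p under 0.05. The 22 tested of 26 XBP1 target genes had a median of -0.42 as deposited and -0.09 after scaling, and the 9 tested of 18 plasma cell genes raised by BLIMP-1 had -0.42 and 0.02. Eaf2, an elongation factor partner in the last list, measured 2.99 and 1.38 RPKM in the libraries labelled Irf8 cKO, against 5.43 and 4.38 in Ctrl (log2 ratio -0.93 as deposited, limma adjusted p = 0.0851, and -0.60 after scaling). The 7 tested PAX5-repressed genes had medians of -0.42 and -0.13. The 29 tested of 35 partner factors had -0.35 and 0.04, and the largest scaled value among them was that of Myb, a factor of proliferating cells, with 2.12 and 3.41 RPKM in the libraries labelled Irf8 cKO, against 1.90 and 2.29 in Ctrl. Of 24 paralogs and DNA-binding partners, 6 were tested, and Ebf2, Ebf3 and Ebf4 were listed at 0 in all 4 libraries.

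**Figure D5:**
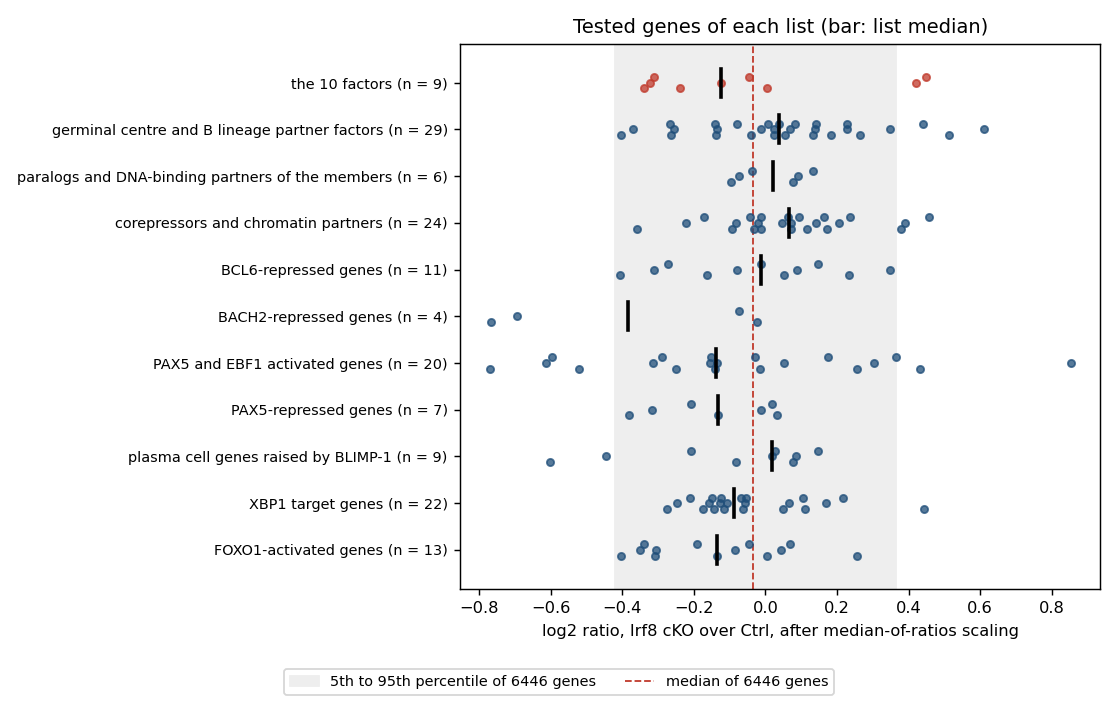
Log2 ratio of Irf8 cKO over Ctrl after median-of-ratios scaling (x axis) of each tested gene in the set of 10 factors and in 10 lists of partners and targets (rows), with the list median as a bar, the 5th to 95th percentile of all 6446 tested genes in grey and their median as a dashed line. Pax5 and Ebf1 lie to the right of the other factors, at 0.42 and 0.45, and the BACH2-repressed median of -0.38 rests on 4 genes.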

How the data were processed

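RNA was measured in 4 germinal centre libraries. Per the labels' protocols, the little RNA obtained was amplified (Ovation RNA-Seq System v2) before Nextera XT library preparation. The authors deposited RPKM per RefSeq gene in 1 table per experiment, beside a log2 ratio (Irf8 cKO over Ctrl) and an unadjusted p-value of their own, from 1 library against 1, per the file headers. The submitters' processing notes list mm9, mm10, DESeq, Cuffdiff, Cufflinks 2.2 and TopHat2 2.0 and do not say what each served for, and the aligner behind the RPKM is thus unknown here. The authors' deposited log2 ratio exceeds that of the RPKM by a constant of 0.205 (experiment 1) or 0.721 (experiment 2), to within 0.05 in 97.1% and 96.2% of genes at 1 RPKM or more. The authors' ratios quoted above are therefore another scaling of the same values and not independent of them.

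RPKM of entries with the same symbol (2 symbols) were added up. Read totals were estimated from the spacing of low RPKM times GENCODE transcript length (97.6% of symbols have a length). At these totals 73.1% to 76.4% of low values were whole within 0.1 reads, so no count model was run. The comparison was fitted on log2(RPKM + 1) with limma 3.58.1 in R 4.3.3 (lmFit and eBayes with a variance trend, 2-sided, 1 residual degree of freedom), and a ratio on this scale understates the change of low genes. As deposited the prior degrees of freedom were infinite, so each SE came from genes of similar level and not from the gene itself; after scaling they were 4.89. The labels number the experiments, and the deviations of libraries from the same experiment had a correlation of 0.377 as deposited (0.336 scaled), with 1 pair of libraries per experiment. Fits were run on simulated data with normal noise and no displacement of all genes between the groups. That run therefore does not bear on the displacement seen in these libraries. Tables and figures used matplotlib 3.10.9, pandas 2.3.3, numpy 2.4.6 and Python 3.11.15. Alternatives were other scalings, pseudocounts, no filter, no block, no variance trend and each library left out. The members, lists, motifs and tests were chosen with earlier results of these data known. Of each list the text names called genes, and others by highest mean or largest scaled ratio of 1 sign in both experiments. Sdc1, Tnfrsf17, Slamf7, Cd3g, Cd247, Lck, S100a8, S100a9, Ftl1, Slc48a1 and the 3 Ebf paralogs are named outside that rule. The other 4 samples, B cells activated with lipopolysaccharide, were not analysed here.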

Additional observations from a re-analysis of the deposited data

How the results depend on the processing

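Over 16 alternatives for each of the 9 tested factors (144 results), none reached an adjusted p under 0.05 in limma; the lowest was 0.0515, for Ikzf3 without a variance trend. Bach2 stayed negative in all of them (log2 ratio -1.09 to -0.29), as did Ikzf3 (-1.03 to -0.27), Ikzf1 (-1.24 to -0.14) and Pou2af1 (-1.14 to -0.12). The sign turned in 18 results. Pax5 was 0.42 after median-of-ratios scaling, 0.43 after upper-quartile scaling, and 0.42 scaled with no replicate block, and with a library left out it was -0.27 to 0.21 as deposited and 0.034, 0.13, 0.71 or 0.81 scaled. Xbp1 was 0.0050 after median-of-ratios scaling with or without the block, 0.0097 after upper-quartile scaling, and with a library left out -0.67 to -0.13 as deposited and -0.21 to 0.22 scaled, with 0.038 without the library labelled Irf8 cKO 1. Ebf1 ran from -0.19 to 0.22 as deposited, Bcl6 from -0.17 to 0.079 scaled, and Foxo1 from -0.26 to 0.016 scaled. Among the within-library ratios, leaving out a library gave log2 differences of -0.40 to 0.18 for Pax5 over Prdm1, -0.13 to 0.98 for Pax5 over Xbp1, -0.21 to 0.44 for Irf8 over Irf4, -0.14 to 0.050 for Pax5 over Ebf1 and -0.22 to 0.25 for Ikzf1 over Ikzf3. Bcl6 over Prdm1 ran from -0.95 to -0.24, Bach2 over Prdm1 from -1.24 to -0.57 and Bach2 over Xbp1 from -0.67 to -0.062. Pax5 over Bach2 ran from 0.37 without the library labelled Irf8 cKO 2 to 1.21 without the library labelled Irf8 cKO 1.

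The counts over all genes depended on the setting: 70 lower and 6 higher became 0 and 0 after median-of-ratios scaling, 79 and 44 after upper-quartile scaling, 0 and 0 with no filter (1694 and 292 at an unadjusted p under 0.05), 19 and 2 with no replicate block, 2 and 1 with no replicate block and scaling, and 277 and 6 without a variance trend. Leaving out 1 library as deposited gave 0 to 1450 lower (1450 when the library labelled Irf8 cKO 1 was dropped, 13 for Irf8 cKO 2, 0 for Ctrl 1, with 31 at an unadjusted p under 0.05, and 5 for Ctrl 2) and 0 to 9 higher, on the assumption that the lone library of a group varies like the other group. After scaling it gave 57 lower and 59 higher when Irf8 cKO 1 was dropped, 13 and 6 for Irf8 cKO 2, 7 and 6 for Ctrl 1, and 10 and 3 for Ctrl 2. The block changed the call of no factor. The list medians kept within the spread between experiments in 73 results and moved beyond it in 87. With 2 libraries per group, differences of the size seen in the factors were not resolved. The cause of these dependences was not tested.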
